A study of Mus musculus with 18 samples.

Results

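Genes of dendritic cells and of T cell costimulation were followed in colon epithelial cells (CECs) of wild-type (WT) and Mbd2-deficient (KO) mice. The 10 genes were Itgax, Flt3, Cd209a, Ccr7, Batf3, Fscn1, Cd40, Cd80, Cd86 and Cd274, and every probe with 1 of these symbols was taken, which gave 18 of the 45281 probes and 10 of the 30869 symbols on the array. The question they address is whether dendritic cells carried over in the sort, or costimulatory transcripts, go with the higher MHC class II transcripts of the KO cells. CECs were purified by flow cytometry as cells positive for EpCAM and negative for CD45, CD3 and the macrophage antigen encoded by Adgre1, so dendritic cells, which carry CD45, lie outside the gate. The groups were Naive_WT, Naive_KO, DSS_WT and DSS_KO, in which DSS marks mice given 2% dextran sulfate sodium in the drinking water for 6 days, an agent that damages the gut lining and causes colitis. The paper describes the WT and KO mice given DSS as littermates housed together, and co-housing with littermates wherever possible for experimental mice. The KO mice given DSS lacked Mbd2 in all their cells, so that a difference between genotypes cannot be assigned to the epithelium alone. Titles of the naive samples say only WT or KO. One replicate could combine RNA of more than 1 mouse, and adult mice matched for age and sex were used.

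RNA was read on 18 Illumina BeadChip arrays with probes of 50 bases. Arrays 4R and 5R, whose R the labels do not explain, were averaged with arrays 4 and 5, which left 4 samples in each of 4 groups. Taken as separate samples, they raised the looser count between genotypes with DSS, given below, from 1 to 3 probes. Between 18851 and 20618 probes per array were detected, meaning a detection p under 0.05 against the negative controls of the same array. The single Mbd2 probe was detected on 0 of 18 arrays in either genotype, so the array does not check the genotype labels. Epcam, the surface protein used in the sort, was detected on every array.

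Dendritic cells take up antigen, move to lymph nodes and present peptides on MHC class II to CD4+ T cells. A T cell then needs a further signal, given by CD80 and CD86 through CD28, and CD40 on the presenting cell is engaged by CD40 ligand of the T cell. CD274, or PD-L1, binds PD-1 and restrains T cells, and it is made by epithelium as well as by myeloid cells, commonly under interferon gamma. Mbd2 binds methylated CpG sites and recruits a corepressor complex that closes chromatin.

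Promoter sequences in the RefSeq table for GRCm38.p6, which run from 250 bases before to 50 after the start of a gene, were found for 7 of the 10 genes (Itgax, Flt3, Cd209a, Batf3, Fscn1, Cd80 and Cd274). They are shown for the gene that differed between genotypes and for 2 that were at or near background, with each CpG, the site that Mbd2 can bind when methylated, in capitals. Methylation was not measured here.
Cd274, chr19:29367188-29367487, plus strand: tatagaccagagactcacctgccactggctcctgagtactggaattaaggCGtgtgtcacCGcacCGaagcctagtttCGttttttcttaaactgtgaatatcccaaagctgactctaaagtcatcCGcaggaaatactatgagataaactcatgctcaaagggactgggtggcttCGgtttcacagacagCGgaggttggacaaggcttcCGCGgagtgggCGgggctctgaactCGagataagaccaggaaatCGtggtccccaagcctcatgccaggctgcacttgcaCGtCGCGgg
Itgax, chr7:128129300-128129599, plus strand: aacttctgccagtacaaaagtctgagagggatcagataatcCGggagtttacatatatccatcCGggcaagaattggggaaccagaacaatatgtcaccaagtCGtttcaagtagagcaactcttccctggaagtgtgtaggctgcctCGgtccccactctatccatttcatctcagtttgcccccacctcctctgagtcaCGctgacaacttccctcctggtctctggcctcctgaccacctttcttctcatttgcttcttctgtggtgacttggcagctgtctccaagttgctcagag
Cd80, chr16:38458683-38458982, plus strand: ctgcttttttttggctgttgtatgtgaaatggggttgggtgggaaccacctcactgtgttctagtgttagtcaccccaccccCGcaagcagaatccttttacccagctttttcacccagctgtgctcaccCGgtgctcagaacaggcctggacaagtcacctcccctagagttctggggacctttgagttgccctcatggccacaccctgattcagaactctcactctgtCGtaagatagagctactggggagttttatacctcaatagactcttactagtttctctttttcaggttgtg
The Cd274 window held 15 CpG sites, against 5 for Itgax, 3 for Cd80 and 1 for Cd209a, and the median over 32851 promoters was 7. The windows of Flt3, Fscn1 and Batf3 held 18, 21 and 34.

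Probe sequences matter here because probes of 1 gene did not read alike. The 3 below belong to a gene that stayed near background, to a Cd40 probe that was silent in naive WT cells, and to the Cd80 probe detected on 5 of 18 arrays, in that order.
Batf3 ILMN_2526739: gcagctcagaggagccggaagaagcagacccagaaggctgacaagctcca
Cd40 ILMN_2502136: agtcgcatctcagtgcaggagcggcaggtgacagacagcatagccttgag
Cd80 ILMN_2877958: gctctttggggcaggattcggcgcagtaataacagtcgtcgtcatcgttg
The deposited table places them at chromosome 1, 192924658 to 192924707, chromosome 2, 164896351 to 164896400, and chromosome 16, 38482739 to 38482788, all on the plus strand, in a genome build it does not name, and without annotation of exon or UTR. The Cd86 probes ILMN_2743244 and ILMN_1217041 share 49 of their 50 bases and are 1 measurement made with separate beads rather than independent evidence.

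The classical dendritic cell genes were at background. Itgax encodes CD11c, and its 2 probes were detected on 0 of 18 arrays, with lowest detection p-values of 0.0566 and 0.0737. Flt3, the receptor for the growth factor that dendritic cells depend on, was detected on 0 of 18 arrays with both of its probes. Cd209a, a lectin of monocyte-derived and dermal dendritic cells, was detected on 1 array, that of DSS_WT replicate 3 (detection p 0.0139). Batf3, a transcription factor that cDC1s need, was detected on 1 DSS_WT and 1 DSS_KO array. None of these 6 probes reached the minimum of 4 arrays, so they were not tested, and they allow no statement on a difference below the detection limit. Their mean log2 signals per group lay between 4.40 (Cd209a in DSS_KO) and 4.90 (Batf3 in DSS_WT). The heat map of detection shows this silent set beside probes seen mainly with DSS, such as Ccr7 and Cd40 ILMN_2502136, and probes seen nearly everywhere, such as Cd274.

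**Figure D1:**
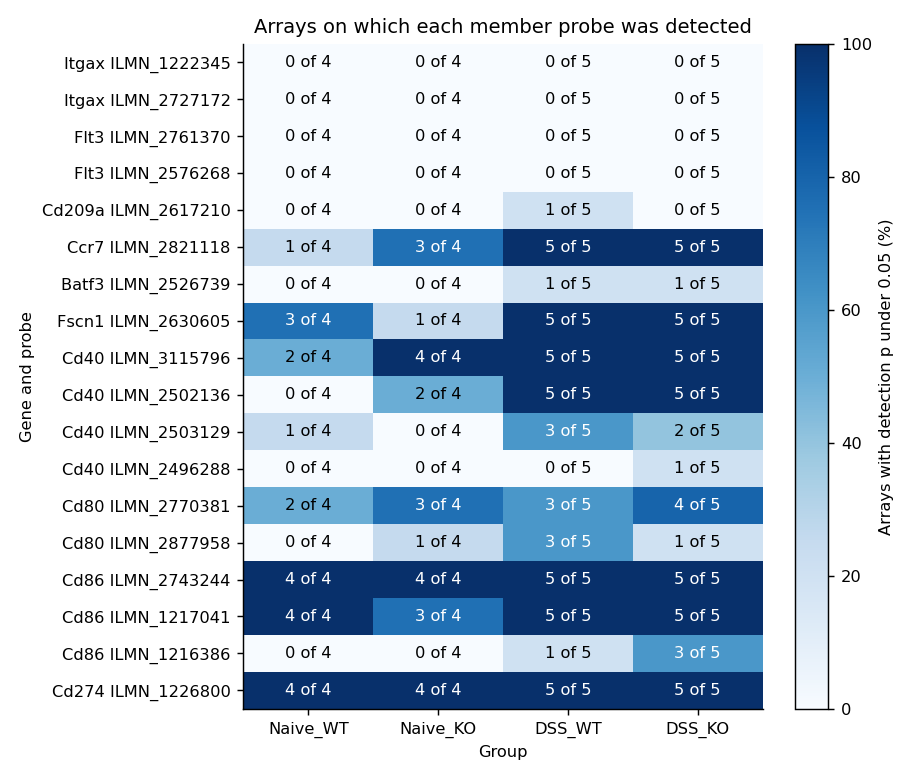
Number of arrays of each group on which each of the 18 member probes had a detection p under 0.05, with the share of arrays as colour. Itgax and Flt3 are at 0 in all groups, Ccr7, Fscn1 and Cd40 ILMN_2502136 are detected on all DSS arrays but not on all naive ones, and Cd86 ILMN_2743244 and Cd274 are detected on all 18 arrays.

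Other dendritic cell genes were in part detected. Of 12 dendritic cell markers, which include 6 of the 10 genes above, 7 were detected on no array of either naive group, 4 on no DSS_WT array and 5 on no DSS_KO array. Xcr1 and Clec9a, surface markers of cDC1s, were detected on 0 of 18 arrays, and Zbtb46, a factor of classical dendritic cells, on 1 DSS_WT and 1 DSS_KO array. Irf8 was detected on every array at a mean log2 signal of 9.70 in Naive_WT, 10.15 in Naive_KO, 10.28 in DSS_WT and 11.07 in DSS_KO, and it is also an interferon-induced gene of other cells. Siglech, a lectin of plasmacytoid dendritic cells, was detected on every array too. The Siglech signal was lower in Naive_KO than in Naive_WT by a log2 difference of -0.78 (adjusted p = 0.0437) and higher in DSS_KO than in Naive_KO by 1.02 (adjusted p = 0.00731). The summed signal of the 12 markers ran from 927 to 1029 intensity units in Naive_WT, 1054 to 1585 in Naive_KO, 1140 to 1747 in DSS_WT and 2199 to 2531 in DSS_KO, and Irf8 made up most of it. Among the 5 markers tested, 2 had a higher mean in DSS_KO than in DSS_WT, and the median difference was -0.14. Irf8 was the 1 marker past the looser limit there, higher in DSS_KO, and none was lower. The 6 dendritic cell genes of the set above summed to 71.3 to 106 units in DSS_KO and 100.4 to 157 in DSS_WT. Of 27 further dendritic cell genes on the array, 11 were detected on every Naive_WT array, 12 on every Naive_KO array, 15 on every DSS_WT array and 14 on every DSS_KO array.

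Of the 18 member probes, 11 entered the test, from Ccr7, Fscn1, Cd40, Cd80, Cd86 and Cd274. Several of them passed the detection filter mainly through the DSS arrays, so counts among the 11 do not describe the whole set. A probe was called at an adjusted p under 0.01 with a log2 difference of at least 1, and an adjusted p under 0.05 was used as a second, looser limit, for which the words rose and fell are used. Calls use the fitted difference. Where no array of a group detected the probe, the fold given is a bound, which can lie under the fold limit of a call. All comparisons come from 1 limma fit, and those that have a group in common share its samples. RNA of sorted cells is a bulk measurement, in which fewer cells of a type and less RNA per cell cannot be told apart.

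Between genotypes, only Cd274 among the 11 member probes passed the looser limit, and it was higher in KO both with and without DSS. With DSS, 0 of 11 were called by limma, against 0.862% of the 21938 probes tested, and 3 of 11 had an unadjusted p under 0.05, against 22.2%. At the looser limit 1 of 11 was higher, against 2.46% of all probes, and 0 were lower, against 3.17%. In naive mice 0 of 11 were called, against 0.656%, and 2 of 11 had an unadjusted p under 0.05, against 22.8%. At the looser limit 1 of 11 was again higher (2.43% of all probes) and 0 lower (2.77%). The median log2 difference of the 11 probes was 0.12 with DSS and 0.21 in naive mice, beside medians of -0.0034 and -0.0011 over all probes. A group in which no array detected a probe gives only a bound, and with such probes set to their bound the naive median was 0.081.

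Cd274 gave log2 signals of 5.73, 6.23, 6.20 and 6.48 in the Naive_WT samples and 7.44, 6.96, 6.98 and 6.55 in the Naive_KO samples. All 4 KO samples lay above all 4 WT samples, and 12.3% of all probes separated in naive mice, in either direction. Of the 11 member probes 2 separated, the other being Cd86 ILMN_1216386, which was lower in KO and detected on no naive array. The Cd274 difference was 0.82 ± 0.23 (SE, n = 4 against 4, 95% confidence interval 0.33 to 1.31, adjusted p = 0.0486). In DSS-treated mice the signals were 6.98, 7.15, 7.99 and 7.19 in DSS_WT and 8.37, 7.77, 8.28 and 8.44 in DSS_KO. DSS_WT replicate 3 reached into the range of DSS_KO, and the other 3 WT samples were below it. The difference was 0.89 ± 0.23 (interval 0.40 to 1.38, adjusted p = 0.033), and without DSS_WT replicate 3 it was 1.11 (adjusted p = 0.00935). Both differences are close to the limit. Leaving out DSS_WT replicate 1, 2 or 4 or DSS_KO replicate 5, 7 or 8 took the adjusted p of the DSS comparison to between 0.0742 and 0.101, while the difference stayed positive under all 25 alternatives, from 0.58 to 1.11. In naive mice the difference was positive under all 25 as well (0.38 to 0.97), but the adjusted p was under 0.05 in only 9 of them.

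**Figure D2:**
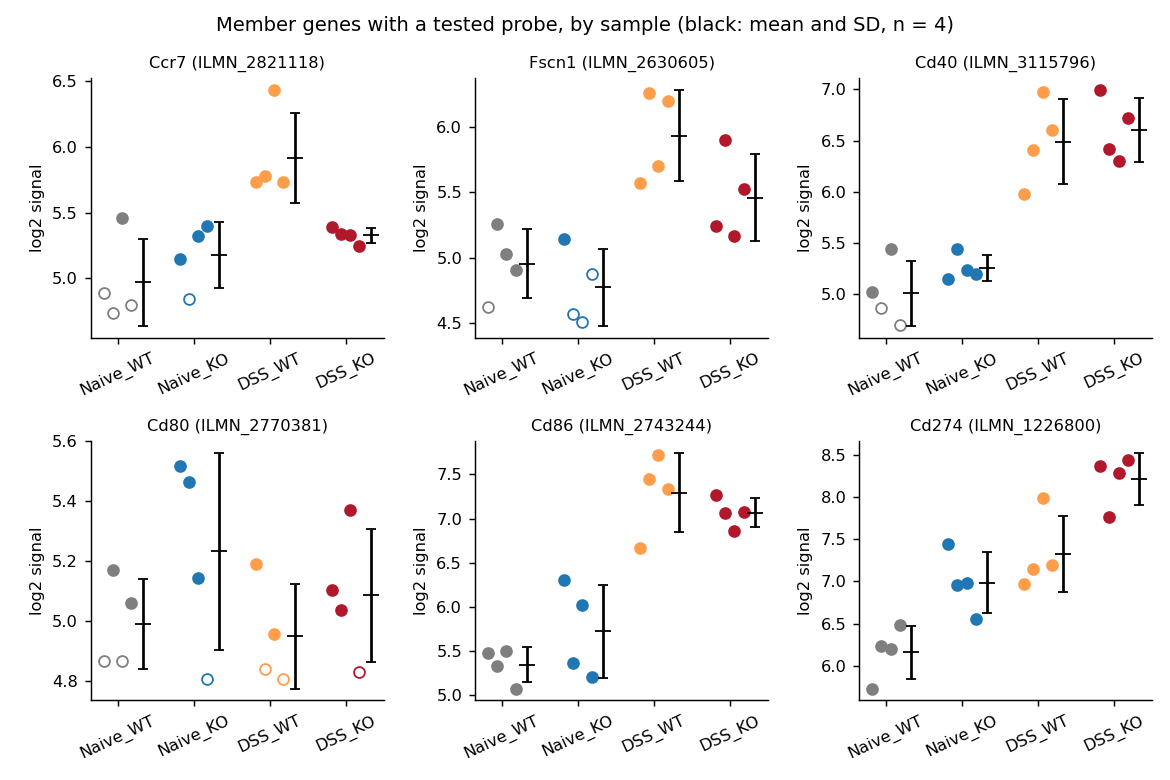
Log2 signal of 1 probe for each of the 6 genes tested, by sample and group, with the mean and SD of 4 samples in black. Filled points were detected on every array of that sample and open points were not. Cd274 is higher in KO in both treatments, Cd40 and Cd86 separate DSS from naive samples, and Cd80 shows no order.

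Ccr7, the receptor that guides dendritic cells and T cells to lymph nodes, had its highest signals in DSS_WT. The values were 5.73, 5.77, 6.43 and 5.73 in DSS_WT and 5.39, 5.34, 5.33 and 5.25 in DSS_KO. The groups did not overlap, as in 14.7% of all probes, and Ccr7 was the only one of the 11 member probes of which this held with DSS. The difference of -0.59 ± 0.18 did not pass the limit (interval -0.97 to -0.21, adjusted p = 0.0652). It was -0.42 without DSS_WT replicate 3 (adjusted p = 0.143), and the adjusted p fell under 0.05 in 4 of 25 alternatives. In naive mice the signals were 4.89, 4.73, 5.46 and 4.80 in WT and 5.15, 4.84, 5.33 and 5.40 in KO, with overlap and a difference of 0.21 (interval -0.17 to 0.59, adjusted p = 0.524). Ccr7 was detected on 1 of 4 Naive_WT arrays, 3 of 4 Naive_KO arrays and all 10 DSS arrays.

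Fscn1 encodes fascin, which bundles actin in the dendrites of mature dendritic cells and is also made by other cells. Its signals were 5.57, 6.26, 5.70 and 6.20 in DSS_WT and 5.24, 5.90, 5.17 and 5.52 in DSS_KO, a difference of -0.48 ± 0.20 (interval -0.91 to -0.04, adjusted p = 0.179). The groups overlapped. In naive mice the signals were 4.62, 5.26, 5.03 and 4.90 in WT and 5.15, 4.57, 4.51 and 4.87 in KO, a difference of -0.18 (adjusted p = 0.637). Both Ccr7 and Fscn1 thus had lower means in DSS_KO than in DSS_WT, neither past the limit. Of the 5 tested dendritic cell markers, 2 had a higher mean there, and Irf8 was past the looser limit. Class II genes were also higher there, and the part of dendritic cells in that difference was not tested.

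The costimulatory genes Cd40, Cd80 and Cd86 did not pass the limit between genotypes with any probe. For Cd86 probe ILMN_2743244 the difference was -0.23 with DSS (interval -0.72 to 0.27, adjusted p = 0.629) and 0.38 in naive mice (interval -0.11 to 0.88, adjusted p = 0.35). For Cd40 probe ILMN_3115796 it was 0.12 (interval -0.31 to 0.55, adjusted p = 0.789) and 0.25 (interval -0.18 to 0.68, adjusted p = 0.491). These intervals reach up to 0.88 on the log2 scale, so a difference of that size is not excluded with 4 samples a group. The overlapping Cd86 probe, ILMN_1217041, differed by -0.14 with DSS and -0.017 in naive mice. The third Cd86 probe, ILMN_1216386, differed by 0.29 with DSS (adjusted p = 0.407), opposite in sign. The second Cd40 probe, ILMN_2502136, differed by 0.37 with DSS (adjusted p = 0.324). In naive mice it was detected on 2 of 4 KO arrays and 0 of 4 WT arrays. Its fitted interval there ran from 0.024 to 0.93 (unadjusted p = 0.0403 by limma). Since the difference did not pass (adjusted p = 0.197) and the groups overlapped, no fold is given against the undetected group. Among the 8 core class II genes, all 8 were called higher in KO in both comparisons, with medians of 2.69 with DSS and 3.42 in naive mice. They are H2-Aa, H2-Ab1 and H2-Eb1, which encode chains of the class II molecule, H2-DMa, H2-DMb1 and H2-DMb2, which load it, Cd74, the invariant chain, and Ciita, the regulator of the whole set. Ciita was not detected in Naive_WT and was at least 5.67-fold higher in Naive_KO (adjusted p = 0.00131). The smallest of the 16 class II differences, 2.34 for H2-Eb1 with DSS, had an interval that lay above that of Cd274, which ended at 1.38.

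**Figure D3:**
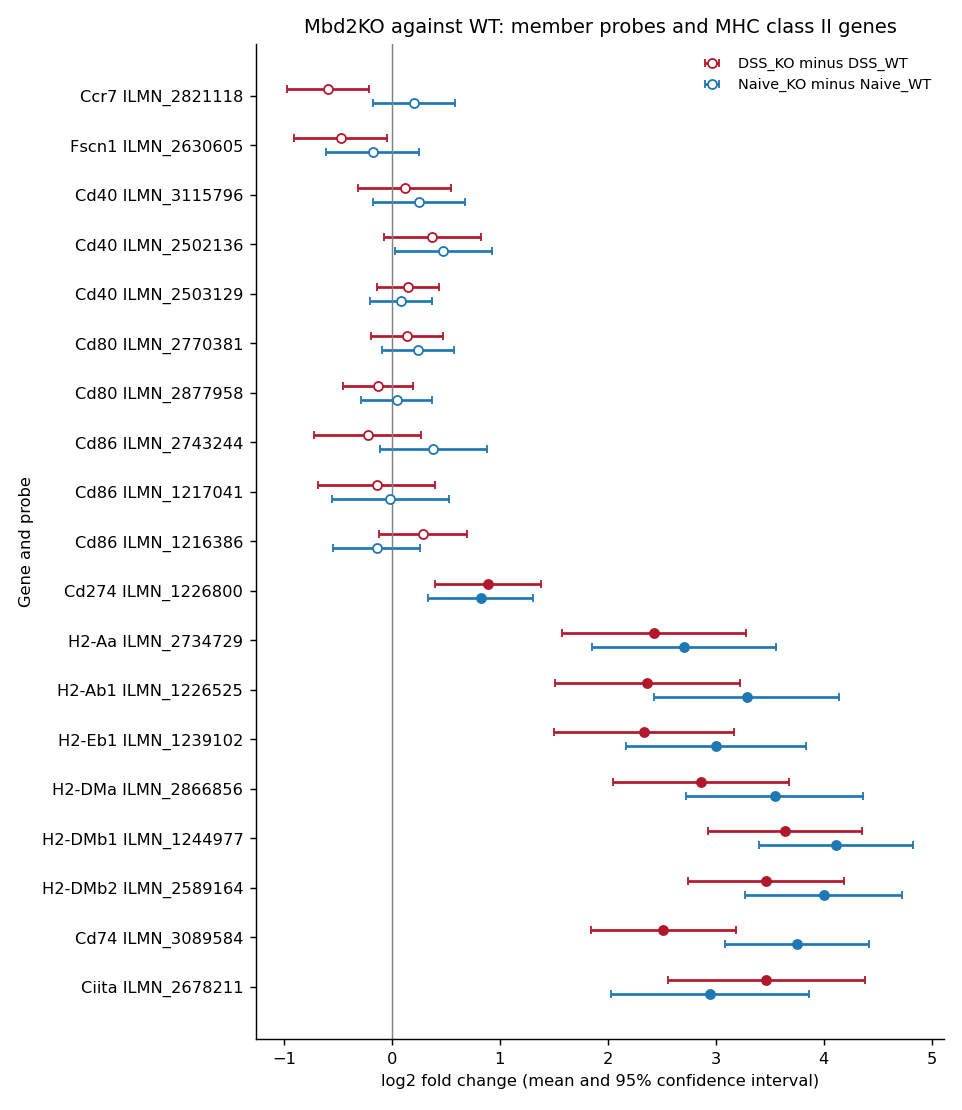
Log2 fold change of KO against WT with its 95% confidence interval, with DSS (red) and in naive mice (blue), for the 11 tested member probes and the 8 core class II genes. Filled points have an adjusted p under 0.05, which among the member probes holds only for Cd274. Differences from a group without detection are drawn as fitted.

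More member probes passed the limits with DSS than between genotypes. In WT mice 5 of 11 member probes were called, all higher, against 1.34% of all probes called higher, and 7 of 11 rose at the looser limit, against 5.71%. In KO mice 4 of 11 were called higher (1.07% of all probes), and 7 of 11 rose (4.9%). Cd40 ILMN_2502136, called in WT and risen in both genotypes, needed its DSS arrays to pass the detection filter. The same held for Cd86 ILMN_1216386, which rose in KO. For these probes the filter favoured a rise, so the counts are a description. Since the overlapping Cd86 probes are 1 measurement, the calls come from 3 genes in each genotype, Cd40, Cd86 and Cd274. Without background correction, which compresses the log2 scale, 0 were called in either. No member probe fell in either genotype, against 4.75% and 4.52% of all probes. Signals of DSS and naive samples did not overlap for 7 of 11 probes in each genotype, DSS being higher, against 8.87% of all probes in WT and 7.63% in KO. The median log2 difference of the 11 probes was 0.98 in WT (0.94 with undetected probes at their bound) and 0.69 in KO, and over all probes it was -0.0101 and -0.0159.

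Cd86 had the largest rise among the member probes. With ILMN_2743244 the Naive_WT samples gave 5.48, 5.33, 5.50 and 5.08 and the DSS_WT samples 6.66, 7.44, 7.72 and 7.34. The groups stood more than 1 log2 unit apart, and the rise was 1.95 ± 0.23 (3.86-fold, adjusted p = 0.000287). The Naive_KO samples gave 6.31, 5.36, 6.03 and 5.21 and the DSS_KO samples 7.27, 7.07, 6.86 and 7.07, a rise of 1.34 (2.53-fold, adjusted p = 0.0025). The overlapping probe ILMN_1217041 rose by 1.58 (adjusted p = 0.00135) and 1.46 (adjusted p = 0.00258). For ILMN_2743244 in KO the call was lost without Naive_KO replicate 14 (1.22, adjusted p = 0.0117) and without DSS_KO replicate 5 (1.27, adjusted p = 0.011). The third probe, ILMN_1216386, was detected on 0 of 8 naive arrays, 1 of 5 DSS_WT arrays and 3 of 5 DSS_KO arrays. In KO it was at least 1.11-fold higher with DSS (adjusted p = 0.045, under 0.05 in 7 of 24 alternatives). This is a bound because the naive arrays give no more than the detection limit. In WT no fold is given because the DSS_WT mean of 4.84 lay under the detection floor of 4.90. This probe entered the test through DSS arrays alone and is 1 of the 7 that rose in KO.

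Cd40 probe ILMN_3115796 gave 5.02, 4.86, 5.44 and 4.70 in Naive_WT and 5.97, 6.40, 6.97 and 6.60 in DSS_WT. The rise was 1.48 ± 0.20 (2.80-fold, adjusted p = 0.000477), without overlap. Its KO samples gave 5.14, 5.44, 5.24 and 5.20 without DSS and 6.99, 6.42, 6.30 and 6.72 with it, a rise of 1.35 (2.55-fold, adjusted p = 0.000884). Probe ILMN_2502136 was detected on 0 of 4 Naive_WT arrays and all 5 DSS_WT arrays, and it was at least 1.52-fold higher in DSS_WT (adjusted p = 0.00763, called in 9 of 25 alternatives). In KO it rose by 0.90 (adjusted p = 0.0142). Probe ILMN_2503129 of the same transcript, detected on 6 of 18 arrays, differed by 0.16 in WT (adjusted p = 0.482), and in KO, with 0 of 4 naive arrays detected, it did not pass either (adjusted p = 0.34). Probe ILMN_2496288, which the table assigns to another Cd40 transcript, was detected on 1 array and was not tested. Of the 3 Cd40 probes tested, ILMN_3115796 and ILMN_2502136 passed the limit with DSS in both genotypes and ILMN_2503129 did not.

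Cd274 rose with DSS by 1.16 ± 0.23 in WT (2.24-fold, adjusted p = 0.00495) and by 1.23 ± 0.23 in KO (2.34-fold, adjusted p = 0.00383). The means of its 4 groups were 6.16 in Naive_WT, 6.98 in Naive_KO, 7.33 in DSS_WT and 8.21 in DSS_KO. Naive_KO and DSS_WT, neighbours in that order, differed by 0.34 (interval -0.15 to 0.83, adjusted p = 0.322). The rise in WT was called in 16 of 25 alternatives. Leaving out Naive_WT replicate 9, 10 or 11 or DSS_WT replicate 3 or 4 ended the call, with values of 0.94 to 1.21 and adjusted p-values of 0.0117 to 0.0163. The rise in KO was called in 18 of 25, and leaving out Naive_KO replicate 14, 15 or 16 or DSS_KO replicate 5 or 8 ended the call (adjusted p 0.0104 to 0.0173).

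Ccr7 rose with DSS in WT by 0.94 ± 0.18 (1.92-fold, adjusted p = 0.00371) and differed by 0.15 in KO (interval -0.23 to 0.53, adjusted p = 0.658). The difference between these effects, the interaction, was -0.80 ± 0.25, with an unadjusted p of 0.00621 and an adjusted p of 0.27. Across all probes 0% passed the looser limit for the interaction and 10.7% had an unadjusted p under 0.05, so the array does not separate the Ccr7 response of the genotypes. Fscn1 rose by 0.98 ± 0.20 in WT (adjusted p = 0.00629) and by 0.69 in KO (adjusted p = 0.0434, under 0.05 in 14 of 25 alternatives). Cd80, a ligand of CD28, did not pass the limit in any comparison. Its probe ILMN_2770381 ranged from 4.87 to 5.17 in Naive_WT, 4.81 to 5.52 in Naive_KO, 4.81 to 5.19 in DSS_WT and 4.83 to 5.37 in DSS_KO, so that all groups overlapped. It gave differences of -0.04 (interval -0.38 to 0.29) in WT and -0.15 (interval -0.48 to 0.19) in KO.

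**Figure D4:**
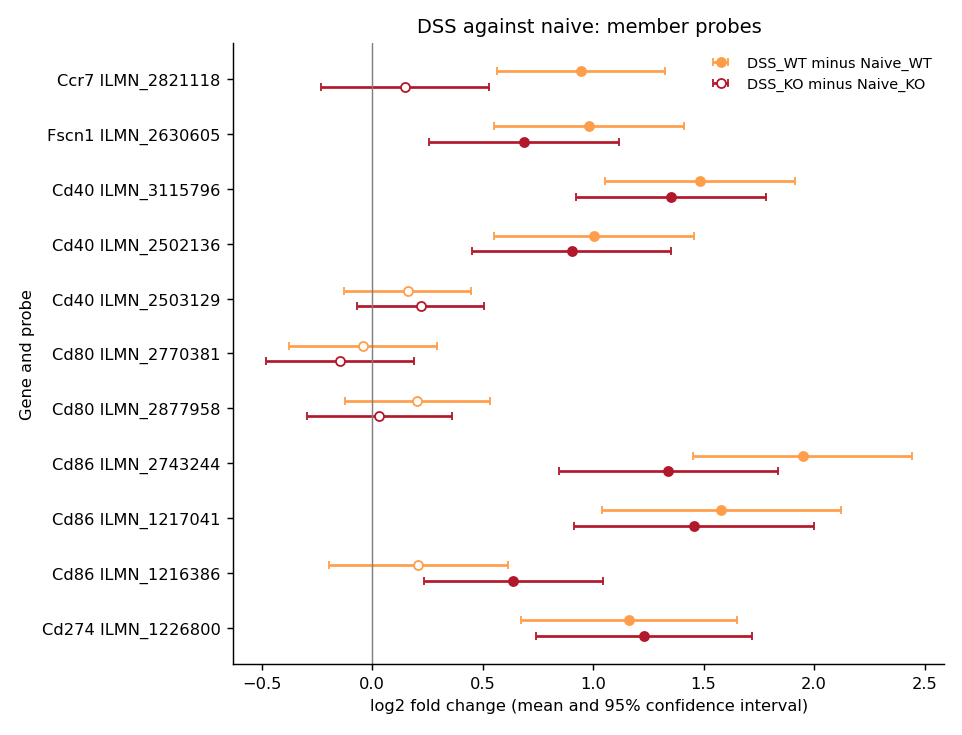
Log2 fold change of DSS against naive with its 95% confidence interval for the 11 tested member probes, in WT (orange) and KO (red). Filled points have an adjusted p under 0.05, which 7 probes reach in each genotype, and the Cd80 probes lie near 0. Differences from a group without detection are drawn as fitted.

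Leukocyte and macrophage genes moved with DSS beside the member genes. Of 12 tested genes of a pan-leukocyte list, 7 were called higher with DSS in WT and 5 in KO, with medians of 1.38 and 1.27. Fcer1g, a signalling chain of Fc receptors, rose by 2.48 in WT (adjusted p = 0.000464) and 2.35 in KO (adjusted p = 0.000647), and Tyrobp, the adaptor of many myeloid receptors, by 1.67 (adjusted p = 0.0011) and 2.14 (adjusted p = 0.000328). Of 11 macrophage genes 8 and 4 were called higher, with medians of 1.36 and 1.11. C1qb, a complement subunit made by macrophages, rose by 2.10 (adjusted p = 0.00102) and 1.78 (adjusted p = 0.0034). Ptprc, which encodes CD45, was detected on 0 of 8 naive arrays, 1 of 5 DSS_WT arrays and 2 of 5 DSS_KO arrays. The summed signal of the 13 leukocyte genes ran from 1397 to 1984 intensity units in Naive_WT, 1482 to 2736 in Naive_KO, 2691 to 5494 in DSS_WT and 4100 to 4851 in DSS_KO. The 16 macrophage genes summed to 1677 to 2206, 2176 to 3511, 2784 to 4992 and 4364 to 4817 in the same order. DSS_WT replicate 3, the highest of its group for Ccr7, Cd86, Cd274 and the Cd40 probes ILMN_3115796 and ILMN_2502136, also had the highest leukocyte mean of all samples, 8.71. The part of these cells in the DSS differences of Cd40, Cd86, Ccr7, Fscn1 and Cd274 was not tested.

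Between genotypes the same lists gave no calls. None of the 12 leukocyte genes was called by limma with DSS (median 0.11, 1 past the looser limit) or in naive mice (median 0.21, 2 higher and 1 lower at the looser limit). None of the 11 macrophage genes was called either, with medians of 0.36 and 0.67 and 0 and 1 past the looser limit. Csf1r, the receptor for the macrophage growth factor, was the 1 that passed, at 0.67 in naive mice (adjusted p = 0.0486). The KO mean was higher for 9 of 11 macrophage genes with DSS and 10 of 11 in naive mice, and for 9 of 12 leukocyte genes in each. The part of these cells in the genotype difference of Cd274 was not tested. Of 16 tested further dendritic cell genes, 0 were called higher and 1 was called lower in DSS_KO against DSS_WT. At the looser limit 2 were higher and 2 lower with DSS, and 0 higher and 3 lower in naive mice. The call was Ccl17, a chemokine of dendritic cells, which was detected on 5 of 5 DSS_WT arrays and on 0 of the other 13, and was at least 1.56-fold higher in DSS_WT than in DSS_KO (adjusted p = 0.00418). Ccl17 entered the test through the DSS_WT arrays alone, where it was high, so its call is a description. Mgl2, a lectin of dermal dendritic cells and macrophages, was called higher with DSS in WT (1.12, adjusted p = 0.00826) and in KO (1.11, adjusted p = 0.00942). Clec10a, a related lectin, was at least 2.43-fold higher with DSS in KO (adjusted p = 9.59e-05). No naive array detected Clec10a, so it entered the test through DSS arrays alone. B cell genes were mostly undetected, with 2 of 8 tested and 0 called in any comparison, and of 4 tested T cell genes 0 were called. At the looser limit 3 of the 4 T cell genes were higher with DSS in WT and 0 in KO, and 1 was lower in DSS_KO than in DSS_WT.

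DSS_WT and Naive_KO were compared after the values had been seen, because the member genes and class II ran in opposite directions there. The counts are therefore a description, and genotype and treatment differ together. Here 4 of 11 member probes, from 3 genes, were called higher in DSS_WT, against 1.64% of all probes, and 5 of 11 were higher at the looser limit, against 8.71%. The log2 differences were 1.57 and 1.60 for the overlapping Cd86 probes, 1.23 for Cd40 ILMN_3115796, 1.16 for Fscn1 and 0.74 for Ccr7, and without background correction 0 were called. Of the 8 core class II genes, 0 were called higher and 4 lower in DSS_WT, with a median of -1.70 and 7 of 8 lower at the looser limit. Tyrobp, Fcer1g, Coro1a and Cd53 were among 6 of 12 leukocyte genes called higher in DSS_WT. The mean log2 signal of the 7 class II genes detected on all arrays was 9.37 to 10.14 in DSS_WT and 10.41 to 12.54 in Naive_KO, without overlap.

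**Figure D5:**
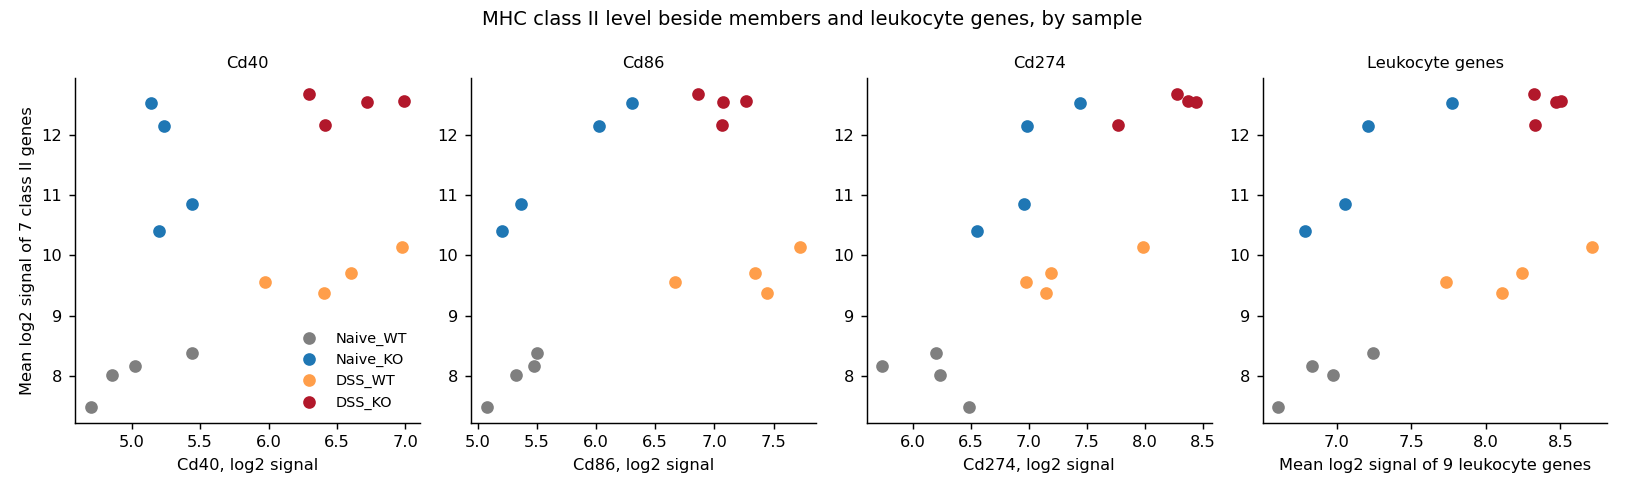
Mean log2 signal of 7 class II genes of each sample (vertical) beside Cd40, Cd86, Cd274 and the mean of 9 leukocyte genes (horizontal), with 1 point per sample and colour by group. DSS_WT samples lie right of and below Naive_KO samples for Cd40 and Cd86, and KO samples lie above WT samples of the same treatment throughout.

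Samples of a group also differed in class II, most of all in Naive_KO, where the class II means of replicates 13, 14, 15 and 16 were 12.54, 10.85, 12.16 and 10.41. In the same order, Cd274 gave 7.44, 6.96, 6.98 and 6.55, Cd86 ILMN_2743244 gave 6.31, 5.36, 6.03 and 5.21, and Ccr7 gave 5.15, 4.84, 5.33 and 5.40. Cd40 gave 5.41, 4.52, 5.30 and 4.69 with ILMN_2502136 and 5.14, 5.44, 5.24 and 5.20 with ILMN_3115796, and the leukocyte means were 7.77, 7.06, 7.21 and 6.79. With 4 samples no test was made. In DSS_KO the class II means lay between 12.17 and 12.69, and the lowest, replicate 6, also had the lowest Cd274, 7.77 against 8.28 to 8.44. Replicate 7, with the highest class II mean, had the lowest Cd40 with ILMN_3115796 (6.30) and ILMN_2502136 (5.72) and the lowest Cd86 with ILMN_2743244 (6.86). With the overlapping Cd86 probe ILMN_1217041 (6.73) and with Cd40 ILMN_2503129 (4.73), the lowest sample was instead replicate 6.

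Genes most like 7 of the member probes over the 16 samples, by Pearson's r across all tested probes, are given as a description, since all points share the 4 groups. For Cd86 ILMN_2743244 they were Il1b (0.978), Sla (0.976) and Gp49a (0.970). For its overlapping probe they were LOC638301 (0.971), Clec7a (0.970) and Gpr65 (0.969). For Cd40 ILMN_3115796 they were Ms4a6d (0.972), Evi2a (0.972) and Srgn (0.964), and for ILMN_2502136 Clec4a3 (0.956), Serpina3g (0.955) and Serpina3f (0.955). For Cd274 they were Serpina3f (0.957), LOC100045680 (0.957) and Cxcl9 (0.949), the last an interferon-induced chemokine. For Ccr7 they were Abi3bp (0.899), Medag (0.898) and Pkig (0.894), and for Fscn1 Stc1 (0.931), Plau (0.931) and Cyp7b1 (0.917). The list differed from gene to gene, and Serpina3f was shared by Cd40 ILMN_2502136 and Cd274.

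Other genes of the costimulation and interferon pathways were counted from lists. Of 11 tested costimulatory and coinhibitory ligands, Btnl2, a butyrophilin-like inhibitor of T cells, was the 1 called between genotypes, at 1.60 with DSS (adjusted p = 0.00188) and at least 2.04-fold higher in naive KO mice (adjusted p = 0.00428), since Naive_WT did not detect it. With DSS, 2 of the 11 were called in each genotype. These were Lgals9, which encodes galectin-9, at 1.56 (adjusted p = 0.000517) and 1.48 (adjusted p = 0.0007), and Icam1, an adhesion molecule of antigen-presenting cells and inflamed epithelium, at 1.59 (adjusted p = 0.000823) and 1.30 (adjusted p = 0.0034). Of 7 tested T cell receptors of these ligands, Lag3 alone was called, at least 1.69-fold higher with DSS in WT (adjusted p = 0.00944). No naive array detected Lag3, so it entered the test through DSS arrays alone. Of 11 genes of CD40 signalling 0 were called in any comparison, and the median was -0.29 in DSS_KO against DSS_WT and 0.18 in DSS_WT against Naive_WT. Ccl21a, a ligand of Ccr7, rose by 1.48 in WT (adjusted p = 0.00888), and both tested ligands of Ccr7 were also higher with DSS in KO at the looser limit. With DSS in WT, Csf2rb2, a receptor subunit for myeloid growth factors, was at least 1.73-fold higher (adjusted p = 0.0022). It too was detected on no naive array and entered the test through DSS arrays alone.

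Interferon gamma response genes, of which 18 were tested, gave more calls between genotypes than the members did. In DSS_KO against DSS_WT 2 were called higher and 8 passed the looser limit, with a median of 1.09, and in naive mice 6 and 12, with a median of 1.14. Psmb8, a subunit of the immunoproteasome, was called in both (2.19, adjusted p = 0.00621, and 3.04, adjusted p = 0.000603), and so was Ido1, which breaks down tryptophan (3.02, adjusted p = 0.00916, and 4.43, adjusted p = 0.000665). All 18 had a higher mean in DSS_KO than in DSS_WT, and so did Cd274. Of 15 epithelial genes 0 were called in any comparison, and Epcam differed by 0.11 with DSS (adjusted p = 0.766) and by -0.62 in naive mice (adjusted p = 0.0509).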

How the data were processed

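Values were taken from the table deposited by the authors. Per the file headers its normalization was set to none: each signal is a bead intensity on a linear scale, with a detection p-value per probe and array. The submitters' processing notes name lumi and limma, with no versions. The neqc function of limma 3.58.1 in R 4.3.3 corrected the background from 936 negative controls, normalized by quantiles and returned log2 values after an offset of 16. Arrays 4R and 5R were averaged with 4 and 5. The SD of the log2 difference was 0.154 and 0.184, against 0.300 to 0.452 and 0.253 to 0.383 for other pairs of those groups. Probes with a detection p under 0.05 on at least 4 arrays were kept (21938). Linear models over all 4 groups (12 residual and 4.71 prior degrees of freedom), with limma's moderated test, gave two-sided p-values, adjusted by Benjamini-Hochberg within a comparison over all tested probes. The call limits are those of the study's methods. A fold against a group in which no array detected the probe is given as at least N-fold: the brighter mean against the higher, per array, of the probe's own signal and the lowest signal among detected probes. A gene of a list took its brightest tested probe. Symbols were updated through a RefSeq table (GRCm38.p6), which matched 65.3% of probes. Lists are described by counts and medians with no set test. In lists, the genes named are those called (at most the 4 largest per comparison), the core class II genes and 10 defining genes. The genes, lists and tests were chosen with earlier results of these data known. Replicates may pool mice, and the number of arrays limits precision. The fit was tested on simulated data. The genes most like Cd86 ILMN_1216386 and the promoter motifs searched are not reported here.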

Additional observations from a re-analysis of the deposited data

Results flagged for a closer look

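In 2 of 72 combinations of a member probe and a group, 1 of the 4 samples lay far from the others by Dixon's gap test, which chance gives in about 1 in 20 groups. Ccr7 was at 6.43 in DSS_WT replicate 3, while the other DSS_WT samples lay between 5.73 and 5.77. Cd86 probe ILMN_1216386 was at 5.54 in the same sample, while the others lay between 4.55 and 4.71. That sample was also the only one in which Cd209a was detected.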

How the results depend on the processing

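Of 1615 values of member probes under alternatives, 1519 kept their direction and their side of the limit, 54 lost the limit, 10 gained it and 32 changed sign. The comparison of DSS_WT with Naive_KO was chosen after seeing the data and run under the same alternatives. No paired analysis was possible because the groups have no number in common. A fit with the BeadChip as a block was not run, since the table names no chip, and a fit of only the groups compared gives no interaction.

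The call limit on fold change depends on the scale. Without background correction 0 member probes were called with DSS in WT, 0 in KO and 0 in DSS_WT against Naive_KO, and with an offset of 50 the counts were 2, 1 and 2. In WT, 3 were called without the detection filter and 3 with only the groups compared. Leaving out 1 sample gave 3 to 7 calls in WT (3 without Naive_WT replicate 9 or DSS_WT replicate 3) and 1 to 5 in KO (1 without Naive_KO replicate 14, 2 without Naive_KO replicate 16, DSS_KO replicate 5 or DSS_KO replicate 8). At the looser limit it gave 4 to 7 in KO, with 4 without Naive_KO replicate 14 or 16. Between genotypes with DSS, leaving out 1 sample gave 0 to 1 calls and 0 to 2 at the looser limit, where the count was 0 without the filter, 2 without arrays 4R and 5R, 3 with 18 separate arrays and 2 with array weights. In naive mice that count was 0 without background correction, with median scaling, with an offset of 50, without the filter and with only the groups compared, and 0 to 1 on leaving out 1 sample. The cause was not tested.

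None of the values that changed sign had passed the limit. Cd86 ILMN_1217041 in naive mice was 0.00821 without background correction and 0.0109 with an offset of 50. Cd80 ILMN_2877958 with DSS in KO was -0.0272 with array weights, as was the interaction of Cd274 at -0.0268, and that of Cd40 ILMN_2503129 was -0.0674 without arrays 4R and 5R. On leaving out 1 sample, KO against WT with DSS ranged from -0.053 to 0.28 for Cd40 ILMN_3115796 and from -0.38 to 0.0145 for Cd86 ILMN_1217041. In naive mice it ranged from -0.0966 to 0.126 for Cd80 ILMN_2877958 and from -0.201 to 0.2004 for Cd86 ILMN_1217041. The DSS difference ranged from -0.123 to 0.0177 for Cd80 ILMN_2770381 and from -0.0254 to 0.306 for Cd86 ILMN_1216386 in WT, and from -0.0513 to 0.171 for Cd80 ILMN_2877958 in KO. Interactions ranged from -0.303 to 0.0306 for Cd40 ILMN_3115796, -0.255 to 0.119 for Cd40 ILMN_2502136, -0.0453 to 0.146 for Cd40 ILMN_2503129, -0.364 to 0.0615 for Cd86 ILMN_1217041 and -0.0773 to 0.287 for Cd274. Probes near background limit what can be seen of Itgax, Flt3, Cd209a, Batf3 and Cd80.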
